A study of Mus musculus with 23 samples.

Results

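E0771 tumors grown in formerly obese mice that had lost weight after vertical sleeve gastrectomy (DIO-VSG) were set against E0771 tumors of never-obese mice (CON-LFD). The arrays were chosen by title, DIO-VSG 1 to 6 and CON-LFD 1 to 6, which made 12 of the 23 arrays of the series, 6 in each group. DIO-VSG mice were C57BL6Ncrl mice that had become obese on a 60% high fat diet (D12492) and were then given the gastrectomy together with a low-fat diet. CON-LFD mice had eaten the control diet D12450J throughout and had a sham operation. The other arrays were 6 from obese mice kept on the high fat diet with a sham operation (DIO-HFD) and 5 from obese mice moved to the low-fat diet with a sham operation (DIO-LFD). All mice were injected with E0771 cells, a mouse mammary tumor line of the C57BL/6 background, in the 4th mammary fat pad 22 weeks after the first randomization, and 1 tumor per array was taken at endpoint. The comparison asks what still set tumors apart once obesity had been treated by surgery, when both groups ate a low-fat diet. Between DIO-VSG and CON-LFD mice, surgery, past obesity and the past high fat diet went together, so they cannot be told apart in this comparison. DIO-LFD mice shared the past obesity and high fat diet without the gastrectomy, but the difference between DIO-VSG and DIO-LFD tumors was not tested. The source name of DIO-VSG replicate 1 gives the obese group moved to the low-fat diet, against its title and its group label. Values of some gene lists and of some genes are therefore also given without it, but not of all. The source name of DIO-LFD replicate 1 gives the DIO-HFD group, so the counts and list medians of DIO-LFD tumors are likewise given with and without that array, a choice made after seeing the data.

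In obesity models, adipose tissue and blood carry more leptin, insulin and inflammatory signals, and tumors of obese mice often hold fewer active cytotoxic T cells. Interferon gamma from T and NK cells switches on antigen presentation and chemokine genes in tumor cells and macrophages through JAK and STAT proteins. Fibroblasts lay down collagen, tumor macrophages take up lipid and make complement and chemokines, and endothelial cells build the vessels, so an RNA sample of a whole tumor is a mix of all of these with the cancer cells. In such a mix fewer cells of a type and less RNA per cell cannot be told apart.

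The values were log2 array signals, in which a difference of 1 means double the signal. They ran between 1.36 and 18.69, array medians between 6.13 and 6.5, and the lowest correlation of any pair of arrays was 0.961. A gene was called above the limit of low signal when its mean in either group passed 4.77, the 40th percentile of probe set means, and 12168 of 19505 genes did. Of the 22 measured genes of the mammary epithelium list, 6 were above that limit. Krt8, a keratin of simple epithelia, was bright at 11.28 to 12.74 in DIO-VSG tumors and 11.77 to 13.11 in CON-LFD tumors, while Epcam, an epithelial adhesion protein, lay at 3.36 to 5.11 in DIO-VSG tumors and 4.15 to 5.54 in CON-LFD tumors. Cdh1, which codes E-cadherin, reached 5.80 in DIO-VSG tumors and 7.91 in CON-LFD tumors at most, so of these 3 epithelial markers only Krt8 was bright in every tumor. In DIO-VSG and in CON-LFD tumors the mean of skeletal muscle genes varied more between arrays than that of any other of the 35 lists. It was above 9 in DIO-VSG 2 and 4 and in CON-LFD 3 and 5, which are called muscle-rich below, and ran up to 10.89 in DIO-VSG tumors and 14.49 in CON-LFD tumors. The muscle mean was also above 9 in DIO-HFD 1 and in DIO-LFD 1, 4 and 5. Fits without the muscle-rich arrays left these out as well, so their p-values rest on fewer arrays of every group.

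No gene separated the groups at the level of the whole array. With limma on all 23 arrays, 0 of 19505 genes had an adjusted p below 0.05, 0 had one below 0.1, and the smallest was 0.558. At an unadjusted p below 0.05 there were 1302 genes, 6.68% of those tested, of which 697 (3.57%) were higher and 605 (3.1%) lower in DIO-VSG tumors. Single genes below are therefore described by their values and not as calls. The DIO-VSG and CON-LFD arrays did not overlap for 61 genes (0.313%), 31 higher (0.159%) and 30 lower (0.154%) in DIO-VSG tumors, and 43 of these were above the limit of low signal. For the same CON-LFD arrays, DIO-HFD tumors gave 1 gene with an adjusted p below 0.05, 129 below 0.1 and 2617 genes (13.4%) at an unadjusted p below 0.05, and DIO-LFD tumors gave 0, 0 and 1060 (5.43%), or 0, 0 and 823 (4.22%) without DIO-LFD replicate 1. These counts share the CON-LFD arrays, and the difference between the comparisons was not tested.

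The precision sets what the comparison could have shown. Among the 12168 genes above the limit, the median standard error of a difference was 0.214, and the 95% interval of the difference lay within 1 of 0 for 10121 genes (83.2%) and within 2 of 0 for 11776 genes (96.8%). A measured difference over 1 in size was found for 304 of them. In simulated data of the same size, the test recovered 66% of genes changed by 1, 90% of genes changed by 2 and 22% of genes changed by 0.5. These shares hold for normal noise, independent between genes, with 50 changed genes at each size. All changed genes had a mean over all arrays above 4.77. In the real arrays the muscle genes varied together, so the shares may not carry over.

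**Figure D1:**
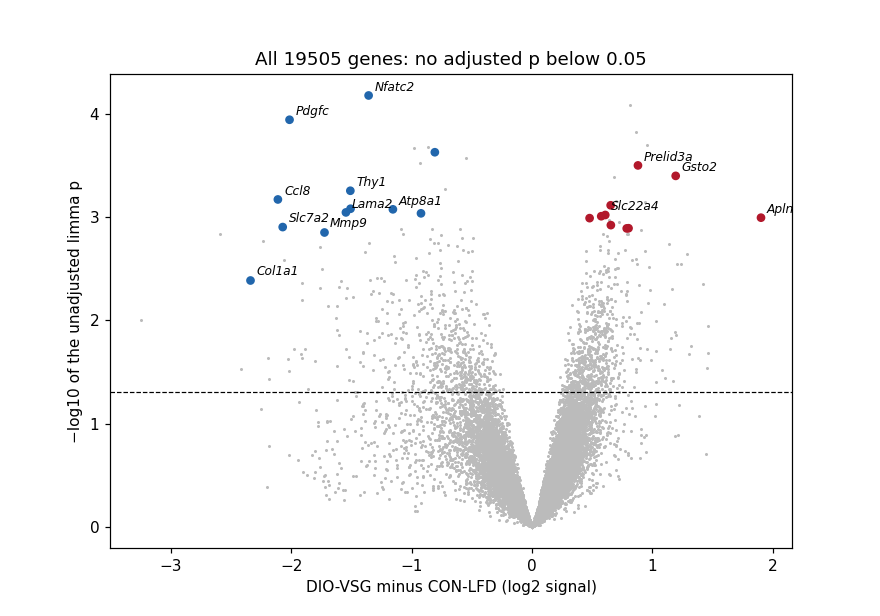
Difference between DIO-VSG and CON-LFD tumors (x axis, log2 signal) and −log10 of the unadjusted limma p (y axis) for each of 19505 genes. The dashed line marks the unadjusted threshold of 0.05, red and blue points are named genes higher and lower in DIO-VSG tumors, and the points with the largest differences lie on the lower side, with Nfatc2 highest on the p axis.

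The gene with the smallest p of all, Nfatc2, codes a calcium-regulated transcription factor that turns on cytokine genes in activated T cells. Its signal was 5.69, 6.38 and 6.79 (lowest, median and highest array) in DIO-VSG tumors and 6.99, 7.74 and 8.40 in CON-LFD tumors. The groups did not overlap, and the difference was -1.36 ± 0.28 (SE), 2.56-fold lower in DIO-VSG tumors, with a limma adjusted p of 0.558. Without DIO-VSG replicate 1, its lowest array, the difference was -1.22. Nfatc2 averaged 6.35 in DIO-VSG tumors and 6.34 in DIO-HFD tumors.

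Pdgfc, a growth factor for fibroblasts and other mesenchymal cells, had 4.59, 6.26 and 7.55 in DIO-VSG tumors and 7.13, 8.58 and 8.81 in CON-LFD tumors. The upper end of the DIO-VSG range overlapped the lower end of the CON-LFD range, and the difference was -2.01 ± 0.43, 4.04-fold (limma adjusted p = 0.558). Ccl8, a monocyte-attracting chemokine made largely by macrophages, spanned 9.12, 12.14 and 12.92 in DIO-VSG tumors and 12.67, 13.65 and 14.55 in CON-LFD tumors. Its difference of -2.11 ± 0.54 became -1.63 without DIO-VSG replicate 1, the array at 9.12. Slc7a2, a transporter of arginine and other cationic amino acids that macrophages use, had 4.08, 4.24 and 5.91 in DIO-VSG tumors and 5.91, 6.5 and 8.17 in CON-LFD tumors, so the groups met at a shared value, and the difference was -2.07 ± 0.56. With 4 of its 6 DIO-VSG arrays and their mean of 4.62 below the limit of low signal, the size of that difference is uncertain. Lama2, a chain of the basement membrane protein laminin, did not overlap, at 4.48, 4.98 and 5.33 in DIO-VSG tumors and 5.47, 6.08 and 7.87 in CON-LFD tumors. The lowest of these DIO-VSG signals lay below the limit of low signal, and the difference of -1.54 ± 0.41 became -1.02 without the muscle-rich arrays.

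The other genes with the smallest p among those lower in DIO-VSG tumors were Ak8, an adenylate kinase (-0.81 ± 0.19), Cpxm1, a secreted carboxypeptidase-like protein (-1.51 ± 0.39), Atp8a1, a flippase that moves phosphatidylserine to the inner leaflet (-1.16 ± 0.30), Cnr2, the cannabinoid receptor of immune cells (-0.92 ± 0.24), and Thy1, a surface protein of mouse T cells and of fibroblasts. Thy1 had 8.24, 9.57 and 10.57 in DIO-VSG tumors and 10.33, 10.80 and 11.51 in CON-LFD tumors, a difference of -1.51 ± 0.38. Their limma adjusted p-values were between 0.558 and 0.597. The DIO-VSG means of Ak8 and Cpxm1, 4.65 and 4.37, were also below the limit of low signal.

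Of the 10 genes with the smallest p on the higher side, most differed by less than 1. Prelid3a, a lipid transfer protein of mitochondria, had 7.49, 7.70 and 8.25 in DIO-VSG tumors and 6.42, 7.01 and 7.18 in CON-LFD tumors. The groups did not overlap, with a difference of 0.88 ± 0.21. Gsto2, an omega class glutathione transferase, had 3.99, 5.10 and 5.46 in DIO-VSG tumors and 3.39, 3.75 and 3.98 in CON-LFD tumors. It did not overlap either, at a difference of 1.19 ± 0.29, but every CON-LFD array lay below the limit of low signal. Slc22a4, a carnitine and ergothioneine transporter, lay at 10.85 to 11.37 in DIO-VSG tumors and 10.19 to 10.74 in CON-LFD tumors, and Depdc5, a subunit of the complex that restrains mTORC1 when amino acids are short, lay at 10.11 to 10.78 in DIO-VSG tumors and 9.71 to 10.10 in CON-LFD tumors. Both were free of overlap, at 0.61 ± 0.16 and 0.48 ± 0.13. Apln, the peptide ligand of the apelin receptor made by sprouting vessels and by fat cells, had the largest difference of these, at 7.91, 8.40 and 9.64 in DIO-VSG tumors and 5.50, 6.83 and 8.33 in CON-LFD tumors. That was 1.90 ± 0.51 or 3.74-fold, and the CON-LFD array at 8.33 was the only one to reach the DIO-VSG range. Wdr95 (0.65), Gramd4 (0.57), Abcg4 (0.66), Gdap1l1 (0.80) and Lyzl4 (0.79) completed the 10 with the smallest p, and the limma adjusted p of the 10 lay between 0.558 and 0.597. For all 20 genes, 10 in each direction, the unadjusted p stayed below 0.05 without DIO-VSG replicate 1, and 6 of the 20 did not overlap. The 20 were chosen by their small p in these same arrays, so both results follow in part from that choice and give no separate support. Without the muscle-rich arrays the unadjusted p stayed below 0.05 for 18 of the 20. The exceptions were Abcg4, whose difference became 0.36 (unadjusted p = 0.119 by limma), and Cnr2, whose difference became -0.68 (unadjusted p = 0.056 by limma).

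**Figure D2:**
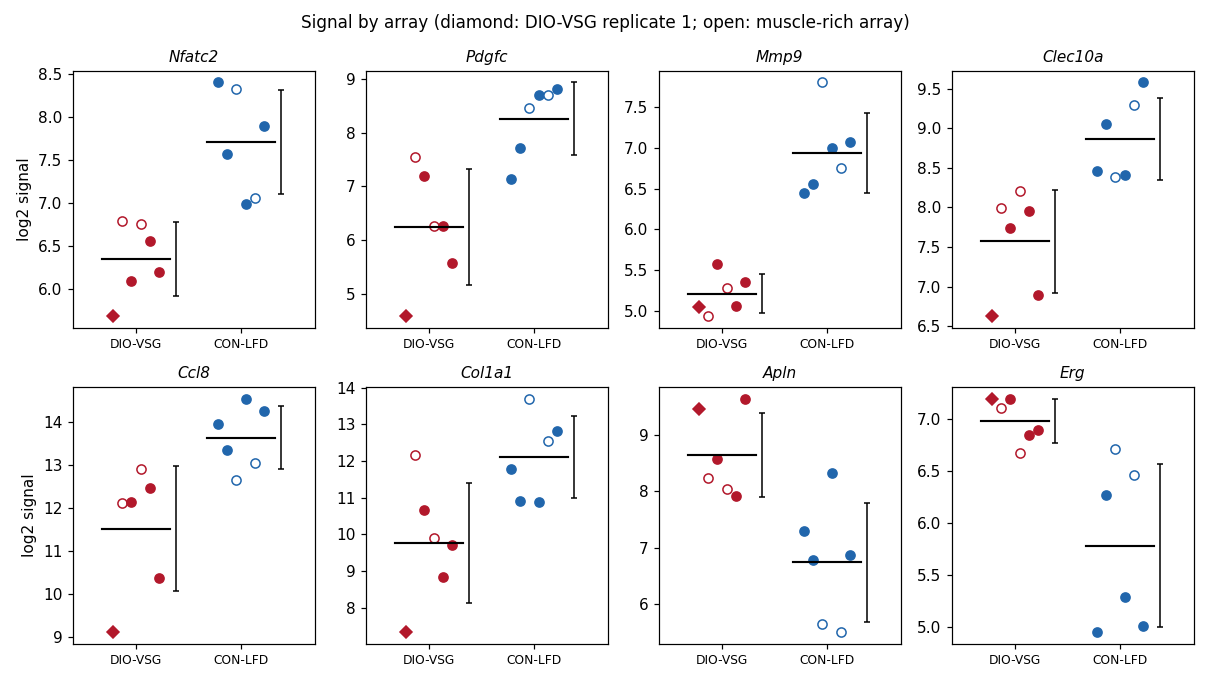
Log2 signal (y axes) of 8 genes in each of 6 DIO-VSG tumors (left, red) and 6 CON-LFD tumors (right, blue), with the mean (line) and SD (bar). Diamonds mark DIO-VSG replicate 1 and open circles the muscle-rich arrays, and for Nfatc2, Mmp9 and Clec10a no DIO-VSG array reaches the lowest CON-LFD array.

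Fibroblast and matrix genes had the lowest median difference of the 35 lists other than muscle. Of 25 measured members 23 were lower and 2 higher in DIO-VSG tumors, with a median difference of -1.13 against 0.02 over all genes, and 12 of them were lower and 0 higher at an unadjusted p below 0.05, a threshold that 3.1% of all genes passed on the lower side. No member passed the adjusted threshold. Col1a1, the main chain of type I collagen, had 7.33, 9.80 and 12.17 in DIO-VSG tumors and 10.88, 12.16 and 13.70 in CON-LFD tumors. The highest DIO-VSG array, a muscle-rich one, reached into the CON-LFD range, and the difference was -2.34 ± 0.73, 5.06-fold (limma adjusted p = 0.613). Its partner chain Col1a2 differed by -2.19 ± 0.90. Postn, which codes the matrix protein periostin, had 9.17, 11.05 and 13.30 in DIO-VSG tumors and 10.51, 12.80 and 14.90 in CON-LFD tumors, a difference of -1.88 ± 0.75 with broad overlap. Mfap5, a microfibril protein, differed by -1.37 ± 0.53.

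The fibroblast counts rested in part on a few arrays. DIO-VSG replicate 1 had the lowest list mean of its group, 8.57, where the groups ran from 8.57 to 10.57 in DIO-VSG tumors and 9.47 to 11.41 in CON-LFD tumors. Without it the median difference was -0.78 and 3 of 25 members were lower at p below 0.05. The count was also 3 without CON-LFD replicate 3, 6 without CON-LFD replicate 5, 7 without CON-LFD replicate 6 and 5 without DIO-VSG replicate 6. CON-LFD replicates 3 and 5 were both muscle-rich and highest in the fibroblast list. Without all muscle-rich arrays the median was -1.07 with 9 members lower at that threshold, and without these and DIO-VSG replicate 1 it was -0.79 with 2. Of the 27 muscle genes, 27 were lower in DIO-VSG tumors, at a median of -1.55 (-0.54 without CON-LFD replicate 3 and -0.16 without CON-LFD replicate 5), and 0 passed an unadjusted p of 0.05. Pdk4, a kinase that shuts down pyruvate oxidation and is high in muscle, had 4.52 to 8.68 in DIO-VSG tumors and 5.42 to 13.97 in CON-LFD tumors. With the muscle list mean of each array as a covariate in the fit, the fibroblast median was -0.78, and 10 of 25 members were lower at p below 0.05.

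Macrophage genes were lower as a group. Of 23 measured members 22 were lower and 1 higher in DIO-VSG tumors, with a median of -0.66 and 7 lower at p below 0.05, against 3.1% of all genes. Clec10a, a galactose-binding lectin of macrophages and dendritic cells, had 6.63, 7.85 and 8.21 in DIO-VSG tumors and 8.39, 8.76 and 9.58 in CON-LFD tumors. It did not overlap, and the difference was -1.29 ± 0.46 (limma adjusted p = 0.634). Mrc1, the mannose receptor CD206 that marks alternatively activated macrophages, had 10.42, 12.54 and 13.84 in DIO-VSG tumors and 13.18, 13.86 and 14.01 in CON-LFD tumors. Its spread was wide in DIO-VSG tumors and narrow in CON-LFD tumors, and the difference of -1.24 ± 0.46 became -0.83 without DIO-VSG replicate 1. Siglec1, the sialic acid receptor of resident macrophages, differed by -1.54 ± 0.49, Cd163, the hemoglobin scavenger receptor, by -1.49 ± 0.68, and Csf1r, the receptor that keeps macrophages alive, by -0.83 ± 0.33.

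The list mean of macrophage genes was 9.72 to 11.34 in DIO-VSG tumors and 11.27 to 11.97 in CON-LFD tumors, so the groups overlapped only at their edges. DIO-VSG replicate 1 was the lowest array. Without it the median difference was -0.46 and 2 of 23 members were lower at p below 0.05. The count was 4 without CON-LFD replicate 6 and 4 without DIO-VSG replicate 6. Without the muscle-rich arrays the median was -0.84, with 10 members lower at that threshold.

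Lipid handling genes of macrophages were mixed. Of 16 measured members of the lipid-associated macrophage list 7 were higher and 9 lower, but Apoe and Abca1, which code the lipoprotein and the pump that carry cholesterol out of macrophages, were among the lower ones. Apoe had 12.52, 14.54 and 15.14 in DIO-VSG tumors and 14.97, 15.58 and 16.19 in CON-LFD tumors, and Abca1 had 8.23, 8.54 and 9.85 in DIO-VSG tumors and 9.42, 9.99 and 10.93 in CON-LFD tumors. The groups overlapped at the upper end of the DIO-VSG range for both genes, and the differences were -1.38 ± 0.40 and -1.35 ± 0.38. Without DIO-VSG replicate 1, the Apoe array at 12.52, they were -1.04 and -1.27. Gpnmb, a lysosomal glycoprotein of lipid-laden macrophages, was at 13.60 ± 1.03 in DIO-VSG tumors and 12.87 ± 1.25 in CON-LFD tumors (SD, n = 6 each).

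Complement genes, which code a cascade of serum proteins also made by macrophages and fibroblasts, were lower in 11 of 12 measured members, with a median of -0.63 and 6 lower at p below 0.05, against 3.1% of all genes. Cfb, the protease of the alternative pathway, had 8.54, 9.48 and 10.44 in DIO-VSG tumors and 10.44, 10.69 and 11.31 in CON-LFD tumors, so the groups met at a shared value, with a difference of -1.29 ± 0.46. C4b of the classical pathway had 5.53, 8.23 and 9.55 in DIO-VSG tumors and 8.98, 9.11 and 10.60 in CON-LFD tumors, and its difference of -1.62 ± 0.60 became -1.16 without DIO-VSG replicate 1. C1s1, a protease of the first complement component, differed by -1.21 ± 0.42, and Cfp, which codes properdin, by -1.07 ± 0.39. These differences became -1.17 and -0.75 without DIO-VSG replicate 1. Without DIO-VSG replicate 1, whose list mean of 9.85 was the lowest, the median was -0.47 with 4 of 12 lower at p below 0.05.

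Chemokine genes were mostly lower in DIO-VSG tumors. Of 51 measured ligands and receptors 41 were lower, 9 higher and 1 equal, with a median of -0.29. At an unadjusted p below 0.05, 5 were lower and 1 higher, against 3.1% and 3.57% of all genes. Ccl22, the dendritic cell chemokine that draws regulatory T cells through CCR4, had 6.17, 7.28 and 8.0 in DIO-VSG tumors and 7.77, 9.14 and 10.06 in CON-LFD tumors. A single DIO-VSG array passed the lowest CON-LFD array, and the difference was -1.91 ± 0.60. Ccl11, which codes eotaxin, the attractant of eosinophils, had 7.44, 8.86 and 10.06 in DIO-VSG tumors and 9.37, 11.10 and 11.47 in CON-LFD tumors, a difference of -2.06 ± 0.61. Ackr3, an atypical receptor that clears CXCL12, was the member higher at p below 0.05, at 10.94 to 11.46 in DIO-VSG tumors and 10.22 to 11.07 in CON-LFD tumors.

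Of 19 matrix protease and inhibitor genes 12 were lower, at a median of -0.12 (0.00 without DIO-VSG replicate 4), and Mmp9 and Mmp2, the gelatinases, stood at its lower end. Mmp9 had 4.94, 5.17 and 5.58 in DIO-VSG tumors and 6.44, 6.88 and 7.80 in CON-LFD tumors. The groups did not overlap, with a gap between them that was wider than the DIO-VSG range, and the difference was -1.73 ± 0.47, 3.31-fold (limma adjusted p = 0.597). The SD of Mmp9 was 0.24 in DIO-VSG tumors, 1.45 in DIO-HFD tumors, 0.88 in DIO-LFD tumors (0.73 without DIO-LFD replicate 1) and 0.49 in CON-LFD tumors. Fitted on the 12 DIO-VSG and CON-LFD arrays alone, Mmp9 had an adjusted p of 0.0274 and was the only gene below 0.05. Without DIO-VSG replicate 1 its difference was -1.70. Mmp2 had 9.98, 10.73 and 12.02 in DIO-VSG tumors and 10.82, 11.89 and 13.31 in CON-LFD tumors, a difference of -1.21 ± 0.43.

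T cell genes were lower in 19 of 20 measured members, with a median of -0.75 and 6 lower at p below 0.05, against 3.1% of all genes. Cd2, an adhesion protein of T and NK cells, had 4.43, 6.08 and 7.03 in DIO-VSG tumors and 5.96, 7.43 and 7.78 in CON-LFD tumors. Its difference of -1.19 ± 0.45 became -0.87 without DIO-VSG replicate 1, the array at 4.43. Cd5, a restraint on the T cell receptor, had 5.17 to 5.98 in DIO-VSG tumors and 5.97 to 7.21 in CON-LFD tumors. For the defining genes Cd3e and Cd8a 2 of 6 DIO-VSG arrays lay below the lowest CON-LFD array, and for Cd3e 1 lay above the highest. Cd3e, a chain of the T cell receptor complex, had 7.91, 8.52 and 11.66 in DIO-VSG tumors and 8.33, 10.12 and 10.93 in CON-LFD tumors, and Cd8a, the coreceptor of cytotoxic T cells, had 6.55, 7.34 and 9.97 in DIO-VSG tumors and 7.09, 8.92 and 10.08 in CON-LFD tumors. Their differences were -0.91 ± 0.80 and -1.07 ± 0.76, and without the muscle-rich arrays -1.33 and -1.84. Without DIO-VSG replicate 1 the list's median was -0.67 and 2 of 20 members were lower at p below 0.05, and 3 were without CON-LFD replicate 5, DIO-VSG replicate 3 or DIO-VSG replicate 6.

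All 22 measured cytotoxic T and NK effector genes were lower in DIO-VSG tumors, at a median of -0.41. Only Klrc1, which codes the inhibitory receptor NKG2A, had an unadjusted p below 0.05. That was 4.5% of the list, against 3.1% of all genes on the lower side. Klrc1 lay at 6.71, 7.15 and 8.78 in DIO-VSG tumors and 7.02, 9.22 and 9.72 in CON-LFD tumors. Its difference was -1.20 ± 0.54, and -2.04 without the muscle-rich arrays. Of 12 checkpoint receptor genes 11 were lower, at a median of -0.38. Ctla4, the brake on T cell costimulation, was at 6.66 to 8.59 in DIO-VSG tumors and 8.23 to 9.60 in CON-LFD tumors. Its difference of -0.77 ± 0.59 became -0.49 without DIO-VSG replicate 1, the array at 6.66. Cd160 differed by -0.83 ± 0.37, with its 6 DIO-VSG arrays below the limit of low signal. Of 10 regulatory T cell genes 6 were lower and 4 higher, by up to 0.52, at a median of -0.17. At an unadjusted p below 0.05, 3 were lower and 0 higher, against 3.1% and 3.57% of all genes. The lower members included Tnfrsf18, which codes the costimulatory receptor GITR, Il2ra (-0.59 ± 0.27) and Ccr8 (-0.95 ± 0.41). Tnfrsf18 was at 6.44 to 7.87 in DIO-VSG tumors and 7.68 to 9.12 in CON-LFD tumors. Single arrays moved the median of the regulatory T cell list between -0.35 (without DIO-VSG replicate 3) and -0.003 (without CON-LFD replicate 5).

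Dendritic cell genes were lower in 16 of 18 measured members at a median of -0.43, with 4 lower at p below 0.05, against 3.1% of all genes. Cd209a, a lectin of monocyte-derived dendritic cells, had 2.79 to 4.03 in DIO-VSG tumors, all below the limit of low signal, and 3.57 to 5.93 in CON-LFD tumors. Xcr1, the chemokine receptor of cross-presenting dendritic cells, was at 4.89 ± 1.22 in DIO-VSG tumors and 5.89 ± 0.73 in CON-LFD tumors (SD, n = 6 each). MHC class II genes were lower in 9 of 10 members at a median of -0.72. Ciita, the transactivator on which class II genes depend, had 6.30, 7.33 and 8.22 in DIO-VSG tumors and 7.18, 8.57 and 9.39 in CON-LFD tumors, a difference of -1.09 ± 0.37. H2-Eb1, a class II chain, differed by -1.38 ± 0.74, and Ctss, the protease that trims the invariant chain, by -0.68 ± 0.28. In the B cell list, where 10 of 17 members were lower and the median was -0.04 (0.06 with each array centered on its median, and 0.00 to 0.01 without CON-LFD replicate 1, 4 or 6), Cd22, an inhibitory receptor of B cells, was at 4.45 to 5.89 in DIO-VSG tumors and 5.88 to 7.36 in CON-LFD tumors.

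**Figure D3:**
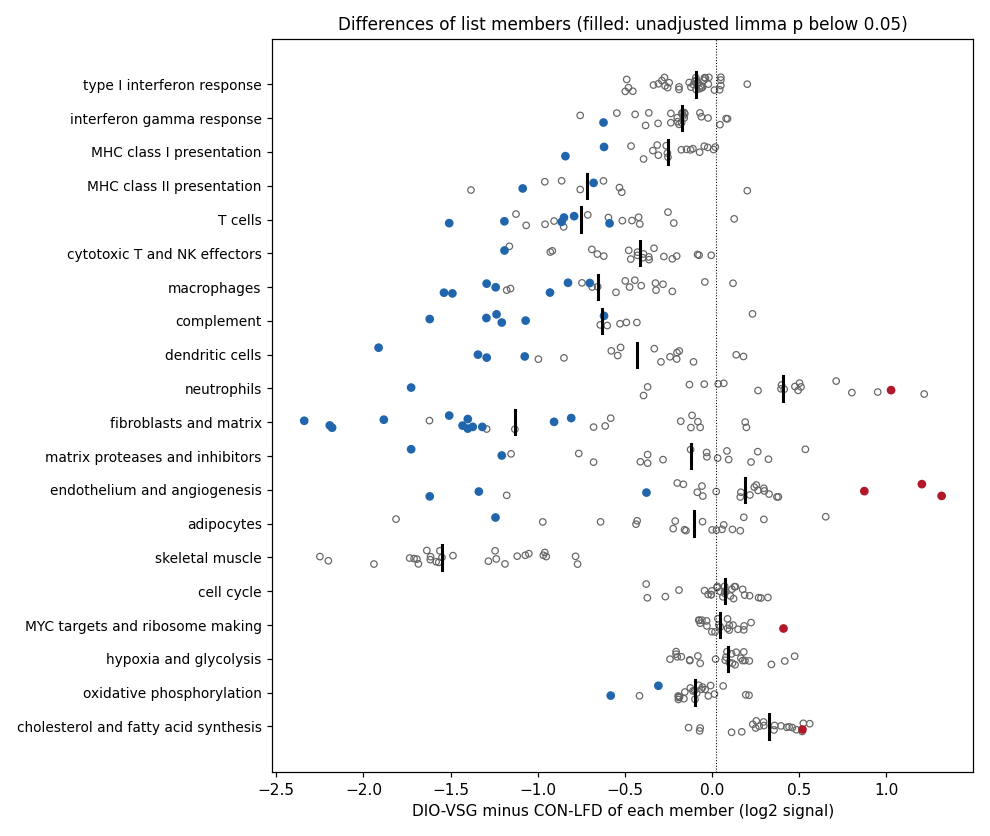
Difference of DIO-VSG minus CON-LFD tumors in log2 signal (x axis) for each measured member (point) of 20 gene lists (rows), with the list median (black bar) and the median of all genes (dotted line, 0.02). Filled points had an unadjusted limma p below 0.05, and most of them lie left of 0 in the fibroblast, macrophage, complement and T cell rows, while the medians of the interferon, cell cycle and MYC rows stay closer to the line.

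The median differences of the interferon lists were small, though most members were lower in DIO-VSG tumors. Of 37 type I interferon response genes 31 were lower and 6 higher in DIO-VSG tumors, the median was -0.09, 0 passed an unadjusted p of 0.05, and the median was 0.01 with each array centered on its median, 0.00 without the muscle-rich arrays and 0.03 without CON-LFD replicate 3. The list means were 12.09, 12.30 and 12.92 in DIO-VSG tumors and 12.07, 12.57 and 13.15 in CON-LFD tumors, an almost complete overlap. Stat2, a transcription factor of the type I interferon response, was at 12.94 to 13.43 in DIO-VSG tumors and 13.06 to 13.85 in CON-LFD tumors, a difference of -0.27 with a 95% interval of -0.73 to 0.19. The antiviral genes Mx1 (-0.49), Oas2 (-0.50) and Parp14 (-0.48) had the lowest values of the list, with limma adjusted p-values of 0.770 to 0.837.

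Of 25 interferon gamma response genes 22 were lower and 3 higher, at a median of -0.17. It was -0.11 without DIO-VSG replicate 2 or 3, -0.28 without DIO-VSG replicate 5, -0.07 with each array centered on its median and -0.37 without the muscle-rich arrays and DIO-VSG replicate 1. Igtp, an interferon-induced GTPase that guards against intracellular parasites in mice, had 11.98, 12.40 and 13.31 in DIO-VSG tumors and 12.76, 13.01 and 13.44 in CON-LFD tumors, a difference of -0.55 ± 0.35. Cxcl9, the chemokine that draws CXCR3-bearing T cells, was at 13.70 ± 0.65 in DIO-VSG tumors and 14.46 ± 0.55 in CON-LFD tumors (SD, n = 6 each). Jak2, the kinase below the interferon gamma receptor and many cytokine receptors, was the member free of overlap, at 11.03, 11.38 and 11.81 in DIO-VSG tumors and 11.88, 11.97 and 12.28 in CON-LFD tumors. Its difference was -0.63 ± 0.23 (limma adjusted p = 0.634). Jak2 was also the only member with an unadjusted p below 0.05, 4% of the list against 3.1% of all genes on the lower side. Of all genes, 0.154% were lower in DIO-VSG tumors without overlap. MHC class I genes were lower in 17 of 19 members at a median of -0.25. Their list means ran from 13.26 to 13.89 in DIO-VSG tumors and from 13.52 to 13.78 in CON-LFD tumors. Only DIO-VSG replicate 5, at 13.89, lay above the lowest CON-LFD array, and the next DIO-VSG array was at 13.43. H2-T23, the ligand of NKG2A in mice, differed by -0.84 ± 0.40, H2-Q4 by -0.62 ± 0.27, and Tap1, a subunit of the peptide pump, by -0.32 ± 0.21 (-0.07 without the muscle-rich arrays).

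The same arrays allow the obese group to be laid beside these, although every value against CON-LFD shares the CON-LFD arrays. The median difference from CON-LFD was -0.09 in DIO-VSG tumors, -0.05 in DIO-LFD tumors and -0.65 in DIO-HFD tumors for type I interferon genes, and -0.17 in DIO-VSG tumors, -0.35 in DIO-LFD tumors and -0.96 in DIO-HFD tumors for interferon gamma genes. The DIO-LFD values include the array of conflicting label, DIO-LFD replicate 1, whose interferon gamma list mean was 10.05 where the other 4 ran from 11.77 to 12.25. Without it the DIO-LFD median was 0.22 for type I interferon genes and -0.03 for interferon gamma genes. For macrophage genes the median difference was -0.66 in DIO-VSG tumors, -0.37 in DIO-LFD tumors and -0.70 in DIO-HFD tumors, and for fibroblast genes -1.13 in DIO-VSG tumors, -0.15 in DIO-LFD tumors and -0.36 in DIO-HFD tumors, with DIO-LFD values of -0.32 and -0.14 without that array. The DIO-VSG values include DIO-VSG replicate 1, also of conflicting label and the lowest array of both lists. Without it they were -0.46 and -0.78. Single genes followed different orders. Igtp averaged 12.49 in DIO-VSG tumors, 11.44 in DIO-HFD tumors and 13.04 in CON-LFD tumors, with the obese group lowest. Mrc1 averaged 12.48 in DIO-VSG tumors, 13.71 in DIO-HFD tumors and 13.72 in CON-LFD tumors, and Clec10a 7.57 in DIO-VSG tumors, 8.73 in DIO-HFD tumors and 8.86 in CON-LFD tumors. Ccl22 and Mmp2 likewise averaged lowest in DIO-VSG tumors, at 7.20 and 10.84, against 8.87 and 12.18 in DIO-HFD tumors and 9.12 and 12.05 in CON-LFD tumors. Without DIO-VSG replicate 1 the differences from CON-LFD were -0.83 for Mrc1, -1.11 for Clec10a, -1.71 for Ccl22 and -1.08 for Mmp2. These genes were picked after their values were seen, and no gene differed between DIO-VSG and DIO-HFD tumors at an adjusted p below 0.05 by limma (1089 genes, 5.58%, at an unadjusted p below 0.05).

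**Figure D4:**
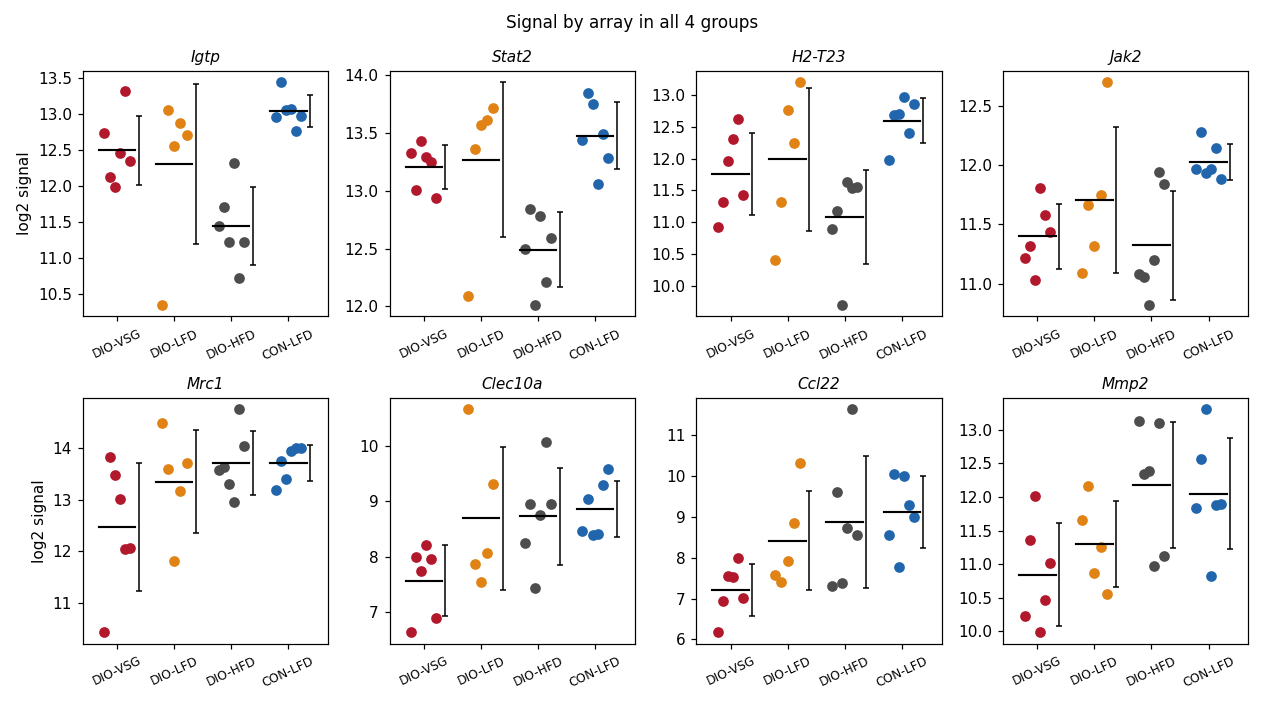
Log2 signal (y axes) of 8 genes in every array of DIO-VSG, DIO-LFD, DIO-HFD and CON-LFD tumors, with the mean (line) and SD (bar). In the upper row Igtp and Stat2 are lowest in DIO-HFD tumors, and in the lower row Mrc1, Clec10a, Ccl22 and Mmp2 have their lowest mean in DIO-VSG tumors.

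Interferon-stimulated promoters carry short sites that bind STAT and IRF proteins, and promoters of 2 of the interferon genes above are shown since their signals in DIO-VSG tumors lay between the obese and the never-obese level. The windows run from 250 bases before to 50 bases after the RefSeq start on GRCm38.p6, written 5′ to 3′ on the gene's strand, with the core of the interferon-stimulated response element in capitals (GAAA, then NN, then GAAA without a gap, where N is any base, searched on both strands).
Stat2, chr10:128270248-128270547 (+): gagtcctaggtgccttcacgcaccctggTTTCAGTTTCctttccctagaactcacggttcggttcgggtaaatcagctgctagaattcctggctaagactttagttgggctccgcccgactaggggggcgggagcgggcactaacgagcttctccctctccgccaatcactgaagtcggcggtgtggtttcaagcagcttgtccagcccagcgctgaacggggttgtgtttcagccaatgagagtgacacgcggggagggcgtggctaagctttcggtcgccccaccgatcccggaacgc
Igtp, chr11:58199306-58199605 (+): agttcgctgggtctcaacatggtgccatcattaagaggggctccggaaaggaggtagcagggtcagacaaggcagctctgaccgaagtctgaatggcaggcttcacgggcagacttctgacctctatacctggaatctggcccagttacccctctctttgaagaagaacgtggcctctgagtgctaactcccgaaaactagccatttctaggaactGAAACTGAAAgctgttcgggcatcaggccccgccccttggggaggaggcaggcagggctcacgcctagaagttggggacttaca
The core began 222 bases before the start in Stat2 and 34 bases before it in Igtp. It was found in the promoters of 13 of 26 type I interferon genes with an entry (50%), 9 of 18 interferon gamma genes (50%) and 618 of 15691 genes tested (3.94%). The gamma-activated site TTCNNNGAA, which reads the same on both strands, was found in 23.1%, 38.9% and 9.02% of them, and once in the Igtp window. A match is only a description of the letters.

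Vessel genes went both ways. Of 24 endothelial and angiogenesis genes 15 were higher and 9 lower at a median of 0.19 (0.01 without CON-LFD replicate 4, 0.06 without DIO-VSG replicate 6 and 0.10 without CON-LFD replicate 1), with 3 higher and 3 lower at p below 0.05, against 3.57% and 3.1% of all genes. Erg, a transcription factor of endothelial identity, had 6.67, 7.0 and 7.19 in DIO-VSG tumors and 4.95, 5.78 and 6.71 in CON-LFD tumors. A single CON-LFD array, a muscle-rich one, reached into the DIO-VSG range, and the difference was 1.20 ± 0.36. Emcn, which codes the endothelial sialomucin endomucin, had 7.71 to 8.95 in DIO-VSG tumors and 6.66 to 8.28 in CON-LFD tumors. Angpt2, which loosens vessels, differed by 1.32 ± 0.52, and Angpt1, its stabilizing counterpart on the receptor TIE2, by -1.62 ± 0.55. The Angpt1 difference was -0.87 without the muscle-rich arrays and -0.63 without these and DIO-VSG replicate 1. The ranges were 8.56 to 10.82 in DIO-VSG tumors and 7.38 to 8.86 in CON-LFD tumors for Angpt2, and 4.22 to 5.93 in DIO-VSG tumors and 5.53 to 9.18 in CON-LFD tumors for Angpt1. Pdpn, a membrane protein of lymphatic vessels and of fibroblasts, differed by -1.34 ± 0.44.

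Neutrophil genes were higher in 15 of 20 members at a median of 0.41. Of the 20 members, 13 were above the limit of low signal. At an unadjusted p below 0.05, 1 was higher and 1 lower, against 3.57% and 3.1% of all genes. The lowest member was Mmp9 (-1.73), described above with the matrix proteases. The list's median was -0.09 without the muscle-rich arrays, 0.19 without CON-LFD replicate 3 and 0.20 without DIO-VSG replicate 4. Trem1, a receptor that amplifies neutrophil and monocyte activation, had 5.75, 6.00 and 6.64 in DIO-VSG tumors and 4.45, 4.80 and 6.98 in CON-LFD tumors. A single CON-LFD array lay above all DIO-VSG arrays and the other 5 below them. Clec4e, the pattern receptor Mincle, was at 9.65 ± 0.75 in DIO-VSG tumors and 8.44 ± 1.61 in CON-LFD tumors (SD, n = 6 each).

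Genes of hormone and nutrient signals included some of the larger differences. Igf1, the growth factor that fat, fibroblasts and macrophages supply locally, had 8.04, 10.96 and 12.34 in DIO-VSG tumors and 11.78, 12.54 and 12.88 in CON-LFD tumors. Its difference was -1.91 ± 0.64, and -1.42 without DIO-VSG replicate 1. Igfbp3, a carrier that binds IGF1, went the other way, at 9.20, 11.25 and 13.09 in DIO-VSG tumors and 8.82, 9.87 and 10.38 in CON-LFD tumors, a difference of 1.30 ± 0.53. Cdh13, a cadherin that binds adiponectin, had 12.71 to 13.74 in DIO-VSG tumors and 12.36 to 13.31 in CON-LFD tumors. Across the list of adipokine, insulin, IGF and gut hormone receptor genes 15 of 24 were lower and the median was -0.13. Adipocyte genes were split, with 9 higher and 11 lower at a median of -0.10, which was 0.02 without DIO-VSG replicate 1 and 0.01 without DIO-VSG replicate 6. Slc2a4, the insulin-regulated glucose transporter of fat and muscle, differed by -1.25 ± 0.59, with its highest value, 8.39, in a CON-LFD tumor and 4.67, below the limit of low signal, as the highest in DIO-VSG tumors. That difference was -0.66 without CON-LFD replicate 5 and -0.41 without the muscle-rich arrays. Car3, an abundant carbonic anhydrase of fat and muscle, ran from 4.10 to 14.43 in DIO-VSG tumors and 6.90 to 16.52 in CON-LFD tumors.

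Cholesterol and fatty acid synthesis genes were higher in 19 of 22 measured members at a median of 0.33. Idi1, an isoprenoid enzyme, was the only member with an unadjusted p below 0.05. That was 4.5% of the list, against 3.57% of all genes on the higher side. Idi1 lay at 12.22 to 12.78 in DIO-VSG tumors and 10.94 to 12.48 in CON-LFD tumors. Hmgcs1, which starts the mevalonate pathway, differed by 0.56 ± 0.30, which was 0.36 without CON-LFD replicate 3 and 0.18 without the muscle-rich arrays. The count of 1 was 10 without CON-LFD replicate 1, 4 without CON-LFD replicate 2, 2 without DIO-VSG replicate 4 and 0 without CON-LFD replicate 3, 5 or 6 or DIO-VSG replicate 6, so single arrays decided it. Without the muscle-rich arrays the median was 0.11. Among phospholipid transporters, where 10 of 18 were lower at a median of -0.06 (0.05 with arrays centered, 0.01 without CON-LFD replicate 1 and 0.06 without DIO-VSG replicate 4), Xkr8, the caspase-activated scramblase, differed by 0.62 ± 0.24 and Plscr1 by 0.35 ± 0.15, opposite to the flippase Atp8a1.

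Lists of cell growth and energy genes differed little in their medians, as measured in whole tumors of mixed cells. Of 27 cell cycle genes 18 were higher and 9 lower at a median of 0.07, with 0 at an unadjusted p below 0.05. Top2a, the topoisomerase of dividing cells, was at 12.92 ± 0.36 in DIO-VSG tumors and 13.30 ± 0.55 in CON-LFD tumors, and Bub1, a spindle checkpoint kinase, at 13.29 ± 0.25 in DIO-VSG tumors and 12.96 ± 0.22 in CON-LFD tumors (SD, n = 6 each). MYC target and ribosome biogenesis genes had a median of 0.05, with Dkc1, the pseudouridine synthase of ribosomal RNA, at 11.69 to 12.17 in DIO-VSG tumors and 11.38 to 11.80 in CON-LFD tumors. Hypoxia and glycolysis genes had a median of 0.09, and Ndrg1 differed by 0.47 ± 0.27. Oxidative phosphorylation genes were lower in 21 of 25 members at a median of -0.10, which was 0.00 with each array centered, and the complex I subunits Ndufa1 and Ndufs3 differed by -0.58 ± 0.25 and -0.31 ± 0.12. The receptor gene Erbb2 had 8.69, 10.26 and 10.33 in DIO-VSG tumors and 8.56, 9.63 and 10.17 in CON-LFD tumors. In the immediate early and heat shock list 16 of 24 were higher and 8 lower, at a median of 0.13. The paired heat shock genes Hspa1a and Hspa1b, near-identical copies whose probes may share signal, differed by 1.46 ± 0.59 and 1.47 ± 0.53. Dusp1, a phosphatase induced by stress, differed by 0.54 ± 0.17. Another heat shock gene went the other way as the lowest member, at -0.99.

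**Figure D5:**
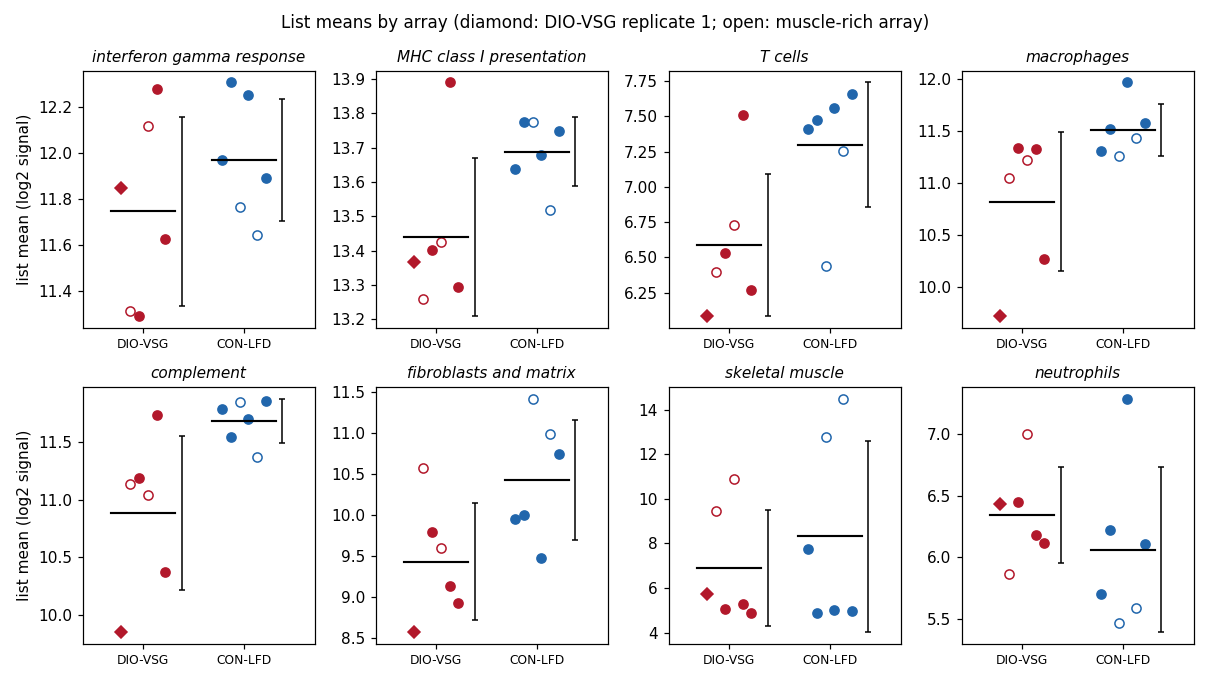
Mean log2 signal of the measured members of 8 gene lists (y axes) in each of 6 DIO-VSG tumors (left, red) and 6 CON-LFD tumors (right, blue), with group mean (line) and SD (bar). DIO-VSG replicate 1 (diamond) is the lowest array of the macrophage, complement, T cell and fibroblast lists, and open circles mark the muscle-rich arrays.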

How the data were processed

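Total RNA from 23 E0771 tumors, each grown in its own mouse, had been measured on Mouse Clariom S HT arrays (Affymetrix). The values that the authors deposited are log2 signals. They come from the Transcriptome Analysis Console, where signal space transformation was followed by robust multichip averaging, and were used here with no further scaling. The platform annotation paired 19572 of 22206 probe sets with a single gene symbol and left 2634 unnamed here. For 55 genes with several probe sets the brightest was used, which left 19505 genes. Old symbols were replaced by way of Entrez identifiers in a gene table of assembly GRCm38.p6.

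Groups followed the titles. Each gene was tested with limma 3.58.1 in R 4.3.3, with a mean per group over all 23 arrays (19 residual degrees of freedom and 4.00 from the prior). Tests were two-sided, with Benjamini-Hochberg adjustment over 19505 genes at 0.05. The study's methods describe only gene set enrichment for the arrays, so the test was chosen here. The script was tested on simulated data with 50 genes changed at each size. Errors beside differences are standard errors of the fit. The number of arrays limits the precision.

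The members and the 35 gene lists (802 genes, 735 measured) were chosen with earlier results of these data known, and lists share some genes, such as Thy1 and Clec10a. The rule for named genes took the 10 smallest p-values in each direction and, per list, up to 4 smallest p-values and 2 largest differences, among genes above the limit of low signal. It gave 156 genes, of which 93 are described. Angpt2, Cd3e, Cd8a and Krt8 lie outside the rule and were chosen after their values were seen. Alternatives covered the arrays used, the labels, the scaling, the low-signal filter, probe sets, array weights, muscle and leaving out each array in turn. Promoters came from RefSeq, and 15691 of the genes tested had an entry.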

Additional observations from a re-analysis of the deposited data

Results flagged for a closer look

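Within groups of 6, single arrays stood apart from the other 5 by more than Dixon's 95% limit (0.625 of the range) in 19 of 264 groups checked, 14 of genes and 5 of list means. Chance alone would set apart about 1 in 20 groups.

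DIO-VSG replicate 5 was the highest of its group for the T cell gene Cd3e (11.66), the dendritic cell gene Xcr1 (7.23) and the MHC class I list mean (13.89, with the next array at 13.43), and the lowest for Dkc1 (11.69). DIO-VSG replicate 4 was the lowest for Erbb2 (8.69, with the next array at 10.17) and the highest for the interferon gene Mx1 (12.28) and the red blood cell list mean (5.62, over 3 measured genes). DIO-VSG replicate 2 was the highest for Abca1 (9.85) and for the list mean of adipokine, insulin, IGF and gut hormone receptor genes (8.58), and DIO-VSG replicate 6 for the skin epidermis list mean (4.46).

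CON-LFD replicate 3 was the lowest of its group for Cd2 (5.96) and for the T cell list mean (6.44, with the next array at 7.25), and the highest for Cfb (11.31). CON-LFD replicate 5 was the highest for Slc7a2 (8.17) and the lowest for Gpnmb (10.49). CON-LFD replicate 2 was the highest for Cdh1 (7.91) and Lyzl4 (4.97). CON-LFD replicate 4 was the highest for Trem1 (6.98) and the lowest for Depdc5 (9.71).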

How the results depend on the processing

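The count of genes with an adjusted p below 0.05 was 0 in every alternative except a fit on the 12 DIO-VSG and CON-LFD arrays alone, which gave 1, Mmp9 (adjusted p = 0.0274). The lowest adjusted p of the other alternatives was 0.127, without DIO-VSG replicate 6, followed by 0.186 with array weights. Genes with an unadjusted p below 0.05 numbered between 1003 (without DIO-VSG replicate 1) and 1517 (without CON-LFD replicate 4) when single arrays were left out, and between 890 and 1682 over all alternatives. They numbered 1038 with the groups of the source names and 925 without the muscle-rich arrays and DIO-VSG replicate 1, an alternative chosen after seeing the data. With each array centered on its median, the median difference of all genes was 0.13 instead of 0.02, and 80.9% instead of 53.5% of the genes with an unadjusted p below 0.05 were higher in DIO-VSG tumors. All 97 genes named kept their direction in every alternative run. Of the 156 genes the rule gave, 9 took the other direction in at least 1 alternative, and none of these 9 was among those described. The difference moved by over 1.5 times without at least 1 single array for 14 of the 97 genes (Car3, Cd3e, Cdh1, Ctla4, Epcam, Erbb2, Gpnmb, Hmgcs1, Idi1, Krt8, Oas2, Pdk4, Slc2a4 and Top2a). Without the muscle-rich arrays it did so for 19, with values given above for 8 of the genes, the other 11 being Car3, Cd160, Cfp, Clec4e, Erbb2, Idi1, Ndufs3, Oas2, Pdk4, Stat2 and Top2a. The median of 26 of the 35 lists moved by over 1.5 times without at least 1 array, and 6 of these medians were over 0.25 in size (checkpoint receptors, lipid-associated macrophages, neutrophils, skeletal muscle, red blood cells, and cholesterol and fatty acid synthesis). DIO-VSG replicate 1 was also the lowest of its group in the MHC class II, dendritic cell, checkpoint receptor and chemokine list means. With single arrays left out in turn, medians ran from -0.94 to -0.59 for MHC class II genes and from -0.57 to -0.34 for dendritic cell genes. They ran from -0.60 to -0.32 for checkpoint receptors and from -0.41 to -0.22 for chemokine genes.

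Replicate numbers did not pair the tumors. Deviations of arrays with the same number correlated at 0.05, -0.41, -0.25, 0.02, -0.31 and 0.28, and with the replicate number as a block 0 genes were called and 1332 had an unadjusted p below 0.05. Signals near the limit of low signal, such as those of Slc7a2, Gsto2, Cd209a, Slc2a4 and Cd160, and of Mmp9 in DIO-VSG tumors, limit what can be said of their size.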

Other observations

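Mast cell and eosinophil genes, not described above, were lower in 10 of 13 members at a median of -0.25, with list means of 4.44 to 5.33 in DIO-VSG tumors and 4.73 to 5.17 in CON-LFD tumors. Only 5 of the 13 were above the limit of low signal. Inflammatory cytokine genes were lower in 16 of 23 members at a median of -0.15, with 0 at an unadjusted p below 0.05 by limma. Genes of the unfolded protein and integrated stress response had a median of 0.05, with 15 of 24 higher in DIO-VSG tumors and 0 at an unadjusted p below 0.05. Fatty acid oxidation and PPAR target genes had a median of 0.01, with 12 higher and 11 lower, and ran between -0.02 (with array weights, and without CON-LFD replicate 4) and 0.23 (without the muscle-rich arrays and DIO-VSG replicate 1).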
